A study of Mus musculus with 6 samples.

Results

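The genes of cholesterol and fatty acid synthesis and of their control by sterol regulatory element-binding proteins (SREBPs) were compared between cultures with and without a Slit2 deletion. The set was given by name, as 32 of the 20173 genes in the count table, and all 32 were found. It holds 5 control genes, 7 genes of the mevalonate branch, 12 of the sterol branch and 8 of fatty acid synthesis and desaturation. RNA was sequenced from 3 libraries of Slit2fl/fl mice (SLIT2f/f in the labels), which carry floxed Slit2 alleles, and 3 libraries of Slit2th mice (SLIT2-knockout in the labels), in which the floxed Slit2 is deleted by Cre driven from the promoter of Th, the tyrosine hydroxylase gene. By the study's methods the cells came from sympathetic chains of male mice aged 3 weeks, kept for 4 to 5 days in neural medium with B27. The labels name sympathetic ganglion as tissue and neuron as cell type, whereas the isolation method speaks of dorsal root neurons, which leaves the starting material uncertain. Nothing in the labels says that the libraries came from separate animals, so the p-values measure only the spread between these 6 libraries.

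Cells make cholesterol from acetyl-CoA through the mevalonate branch, which ends in farnesyl diphosphate, and the sterol branch, which starts with squalene. SREBP precursors are held in the endoplasmic reticulum by Insig proteins when sterols are plentiful, and are carried to the Golgi by Scap when sterols are scarce. SREBP-2, encoded by Srebf2, mainly drives the sterol genes, and SREBP-1c, from Srebf1, mainly drives the fatty acid genes. Glia that ensheath axons need both products for their membrane.

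Total counts ranged from 1255939 to 3155406 per library. Levels below are normalized CPM, counts scaled to the library total with edgeR's TMM factors, and 3 counts, taken as the floor of detection, came to 0.958 to 2.64 CPM. Slit2fl/fl replicate 1, the deepest library, and Slit2th replicate 1, the shallowest, stood apart from the rest. Across genes, log2 CPM correlated (Pearson's r) at 0.824 to 0.847 between a replicate 1 and the others of its group, and at 0.911 to 0.946 between replicates 2 and 3. Slit2 itself stood at 44.4, 55.0 and 43.7 CPM in Slit2fl/fl against 15.0, 11.4 and 15.2 CPM in Slit2th. The deleted gene was thus lower in every Slit2th library, with a log2 fold change of -1.78 (SE 0.37; edgeR quasi-likelihood test, unadjusted p = 0.000933, adjusted p = 0.422). Th had 0 counts in all 6 libraries. The neuron markers in the table summed to 201 to 591 CPM per library, with 14 of 19 under the filter, and the glia markers to 6794 to 21524 CPM. In bulk RNA, fewer cells of a type and less RNA per cell cannot be told apart.

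No lipid synthesis gene changed at the adjusted threshold. All 32 passed the filter of 1 CPM in at least 3 libraries. With edgeR's quasi-likelihood test, and p-values adjusted by Benjamini-Hochberg over the 12152 genes tested, 0 of the 32 had an adjusted p under 0.05, against 0% of all tested genes. DESeq2, limma-voom and edgeR's exact test on the same counts also called 0 of the 32. At an unadjusted p under 0.05, 1 member (3.12%) was higher in Slit2th, the desaturase gene Scd1, against 3.99% of all tested genes. At that limit 3 members (9.38%) were lower, Acat2, Pmvk and Fdft1, against 6.78%. The 3 Slit2th libraries lay above all Slit2fl/fl libraries for Insig2, Scd1 and Fads1, or 9.38% of members against 8.72% of all tested genes. They lay below all Slit2fl/fl libraries for Acat2, Fdft1 and Ebp, again 9.38%, against 9.74%. For each of these 6 genes a two-sided exact permutation test of log2 CPM gave p = 0.10, the smallest that 3 libraries against 3 allow. These shares are near those of all tested genes. The smallest adjusted p of any tested gene was 0.357.

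The fold changes leaned downward, most of all in the mevalonate branch. Among members, 23 of 32 (71.9%) had a negative log2 fold change, against 52.2% of all tested genes, and the median was -0.34 against -0.05. By role the median was -0.56 for the 5 control genes, -1.63 for the 7 mevalonate genes, -0.17 for the 12 sterol genes and 0.07 for the 8 fatty acid genes. All 7 mevalonate genes were negative, although Hmgcs1, at -0.01, turned positive under other scalings and with several libraries left out, whereas 4 of the 8 fatty acid genes were positive. Without replicate 1 of both groups the median over the 30 members then tested was -0.06. The mevalonate median was -0.65 in that fit and -0.90 without Slit2fl/fl replicate 1 alone, and neither fit tested Mvd and Idi1. Its main value, -1.63, is that of Mvk, which had 21 counts in all, while Mvd and Idi1 had 15 each. The control median was -0.24 without Slit2fl/fl replicate 1 and -0.11 with a replicate block and GC-corrected offsets.

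**Figure D1:**
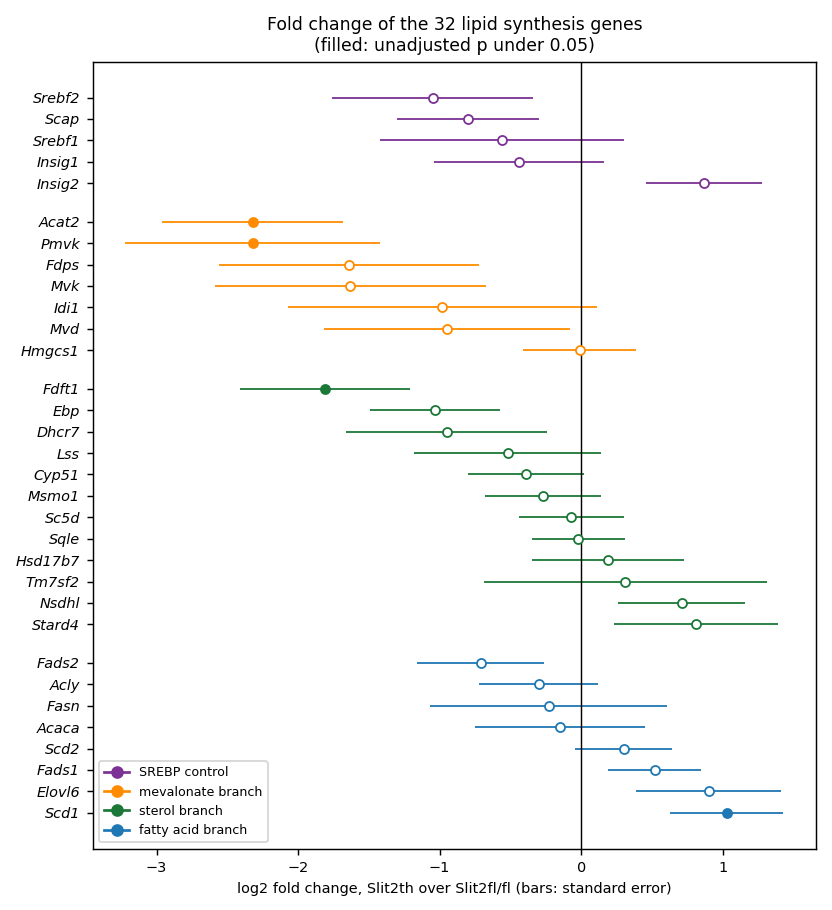
Log2 fold change of Slit2th over Slit2fl/fl (horizontal axis) for each of the 32 genes, in blocks by role, with bars of 1 standard error and n = 3 libraries per group. Filled points mark the 4 genes with an unadjusted p under 0.05, and the 7 mevalonate genes range from -2.32 to -0.01, where the bars of Hmgcs1 and Idi1 cross 0.

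Replicate 1 of each group supplied many of the extreme values. Slit2fl/fl replicate 1 was the highest of the 6 libraries for 14 members and the lowest for 8, and Slit2th replicate 1 was the lowest for 14 and the highest for 3. Both libraries stood apart across genes, but the same shares over all tested genes were not computed. Whether these counts are particular to the members was therefore not tested. For 6 members the Slit2th library was higher in all 3 same-numbered comparisons and for 7 it was lower in all 3, against 19.4% and 21.3% of all tested genes. Counts were low for part of the set: 8 members totaled under 100 counts over the 6 libraries, and Mvk, Mvd, Idi1 and Tm7sf2 under 30.

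**Figure D2:**
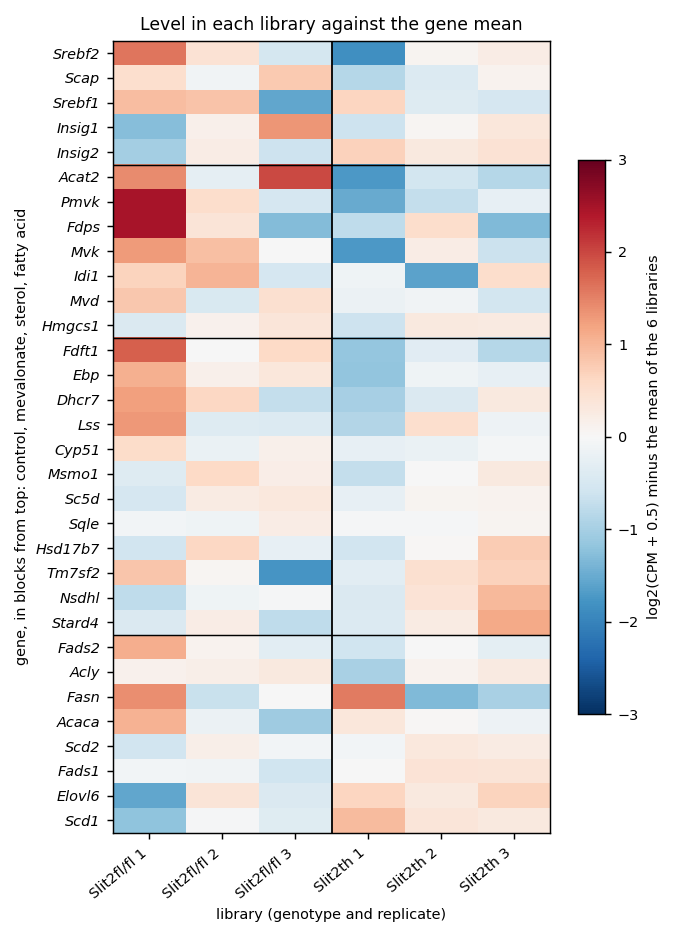
Log2(CPM + 0.5) of each of the 32 genes (rows, in blocks by role) in each of the 6 libraries (columns), minus the gene's mean over the libraries; red is above and blue below that mean. The first column, Slit2fl/fl replicate 1, holds the highest value of 14 genes, and the fourth, Slit2th replicate 1, the lowest of 14.

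Among the control genes, the 2 Insig genes were far above the SREBP genes per length and had fold changes of opposite sign. Insig2 (ENSMUSG00000003721, chr1:121304353-121332589 of GRCm38, minus strand) encodes a retention protein of the endoplasmic reticulum. It stood at 24.9, 59.5 and 32.9 CPM in Slit2fl/fl against 82.7, 62.4 and 68.7 CPM in Slit2th. All 3 Slit2th libraries were higher, but replicate 2 of the groups differed little (log2 fold change 0.87, SE 0.41, unadjusted p = 0.0639, adjusted p = 0.475 by edgeR's quasi-likelihood test), and the value was 0.49 without replicate 1 of both groups. Insig1, the paralog that SREBPs themselves induce in many cells, stood at 23.3, 62.8 and 144 CPM in Slit2fl/fl against 37.0, 59.5 and 72.1 CPM in Slit2th. The Slit2fl/fl libraries spanned the Slit2th ones, and the log2 fold change of -0.44 (SE 0.60) turned to 0.34 without Slit2fl/fl replicate 3. Srebf2 stood at 24.3, 10.4 and 5.11 CPM in Slit2fl/fl against 1.76, 8.09 and 9.01 CPM in Slit2th. Its groups overlapped, and the log2 fold change of -1.05 (SE 0.71) rested on both replicates 1, since it was 0.14 without them. Scap, the escort of the precursors, had a log2 fold change of -0.80 (SE 0.50) and Srebf1 one of -0.56 (SE 0.86), both with overlapping groups.

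In the mevalonate branch, Acat2 was the member with the lowest p. Acat2 (ENSMUSG00000023832, chr17:12942890-12960747, minus strand) encodes the cytosolic thiolase that joins acetyl-CoA units. It stood at 34.8, 10.4 and 51.7 CPM in Slit2fl/fl against 3.52, 8.57 and 6.76 CPM in Slit2th. All Slit2th libraries were below all Slit2fl/fl libraries, although Slit2fl/fl replicate 2 lay close to them (log2 fold change -2.32, SE 0.64, unadjusted p = 0.00519, adjusted p = 0.422 by edgeR's quasi-likelihood test). It was the only one of the 4 members with an unadjusted p under 0.05 that kept it whichever library was left out. Without replicate 1 of both groups the value was -2.02 (unadjusted p = 0.00430). Of the 50-base words in its transcripts, 39.1% also occur in transcripts of its paralog Acat3, which had 0 to 2 counts per library, so how reads shared by the genes were counted could alter its level.

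Pmvk (ENSMUSG00000027952, chr3:89454541-89469013, plus strand), which encodes phosphomevalonate kinase, was high in 1 library. It stood at 21.4, 5.18 and 2.27 CPM in Slit2fl/fl against 0.880, 1.90 and 2.82 CPM in Slit2th. The groups overlapped, and the log2 fold change of -2.32 (SE 0.90, unadjusted p = 0.0290, adjusted p = 0.431 by edgeR's quasi-likelihood test) was -0.90 (unadjusted p = 0.256) without Slit2fl/fl replicate 1. Leaving out Slit2th replicate 1 or 2 gave -2.06 (unadjusted p = 0.0695) or -2.29 (unadjusted p = 0.0674). Fdps, the farnesyl diphosphate synthase, showed the same single high library. Its CPM was 45.4, 10.4 and 2.84 in Slit2fl/fl against 4.40, 11.4 and 2.82 in Slit2th. The log2 fold change of -1.64 (SE 0.92) came to -0.03 without Slit2fl/fl replicate 1. Fdps shares 26.2% of its 50-base words with other genes, mostly Gm43738, whose exons overlap it on the same strand.

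Hmgcs1, the synthase that makes HMG-CoA, had the highest level per length of the branch over the 6 libraries and nearly equal group means. It stood at 38.0, 56.3 and 67.0 CPM in Slit2fl/fl against 33.4, 63.8 and 62.5 CPM in Slit2th. Replicate 1 was the lowest library of each group, and the log2 fold change was -0.01 (SE 0.40). The kinase gene Mvk, the decarboxylase gene Mvd and the isomerase gene Idi1 had log2 fold changes of -1.63 (SE 0.96), -0.95 (SE 0.87) and -0.98 (SE 1.09), on totals of 21, 15 and 15 counts. Summed over the branch, CPM was 147, 88.0 and 127 in Slit2fl/fl against 44.0, 88.1 and 77.7 in Slit2th, so replicate 2 did not differ between the groups.

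**Figure D3:**
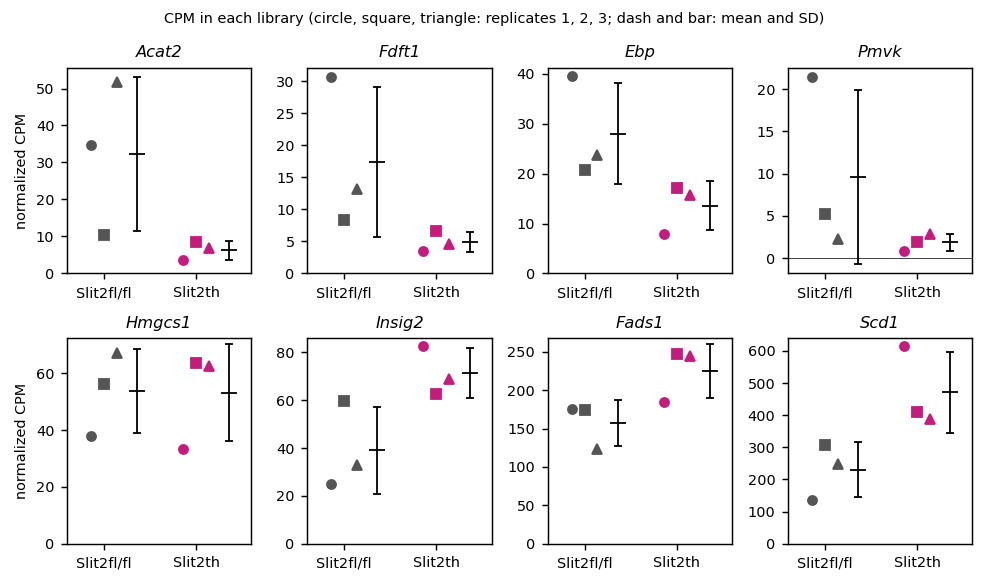
Normalized CPM of 8 genes in each library (vertical axes from 0, but for Pmvk, whose lower bar reaches below 0), with circles, squares and triangles for replicates 1, 2 and 3 and the mean ± SD of n = 3 beside them. Acat2, Fdft1 and Ebp were lower and Insig2, Fads1 and Scd1 higher in every Slit2th library than in any Slit2fl/fl library, while the groups of Pmvk and Hmgcs1 overlapped.

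The sterol branch was mixed, with 4 positive and 8 negative members. Fdft1 (ENSMUSG00000021273, chr14:63145150-63179578, minus strand) encodes squalene synthase, the first enzyme committed to sterols. It stood at 30.7, 8.41 and 13.1 CPM in Slit2fl/fl against 3.52, 6.67 and 4.51 CPM in Slit2th. Every Slit2th library was lower, with a log2 fold change of -1.81 (SE 0.60, unadjusted p = 0.0147, adjusted p = 0.422 by edgeR's quasi-likelihood test), which was -1.09 (unadjusted p = 0.0608) without Slit2fl/fl replicate 1. Its exons overlap those of Ctsb on the opposite strand by 774 bases, and Ctsb had 1157 to 2843 counts per library. The strand setting of the counting is not given in the sources used here, so reads of the shared bases could not be assigned with certainty.

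Ebp (ENSMUSG00000031168, chrX:8185329-8193512, minus strand), the sterol isomerase, was also lower throughout. It stood at 39.6, 20.7 and 23.8 CPM in Slit2fl/fl against 7.92, 17.1 and 15.8 CPM in Slit2th. The groups did not overlap but came close at replicate 2, and the log2 fold change of -1.03 (SE 0.46, unadjusted p = 0.0529, adjusted p = 0.469 by edgeR's quasi-likelihood test) was -0.45 without replicate 1 of both groups. At the other end, Stard4, which encodes a cholesterol transfer protein, stood at 5.11, 8.41 and 3.97 CPM in Slit2fl/fl against 5.28, 8.57 and 16.3 CPM in Slit2th. Slit2th replicate 3 was well above the Slit2fl/fl range and replicate 2 just above it, while replicate 1 lay inside (log2 fold change 0.81, SE 0.58). Nsdhl, the sterol dehydrogenase with the highest level per length of the branch over the 6 libraries, stood at 19.5, 30.4 and 32.9 CPM in Slit2fl/fl against 24.6, 44.3 and 65.9 CPM in Slit2th. Its groups overlapped through Slit2th replicate 1, and the log2 fold change was 0.71 (SE 0.45, unadjusted p = 0.149), or 0.78 (unadjusted p = 0.0191) without replicate 1 of both groups. Sqle, which opens the steps from squalene to lanosterol, ranged only from 49.2 to 62.4 CPM over the 6 libraries, with a log2 fold change of -0.02 (SE 0.33). The other sterol members, Lss, Cyp51, Tm7sf2, Msmo1, Hsd17b7, Sc5d and Dhcr7, had log2 fold changes from -0.95 to 0.31, all with overlapping groups.

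In fatty acid synthesis, the log2 fold changes of Scd1, Elovl6, Fads1 and Scd2 were positive and those of the other 4 genes negative. Scd1 (ENSMUSG00000037071, chr19:44394455-44407879, minus strand) encodes a desaturase that makes monounsaturated fatty acids. It stood at 137, 308 and 248 CPM in Slit2fl/fl against 615, 409 and 389 CPM in Slit2th. All Slit2th libraries were higher, with the widest gap between the replicates 1. The log2 fold change was 1.03 (SE 0.40, unadjusted p = 0.0293, adjusted p = 0.431 by edgeR's quasi-likelihood test) and 0.51 (unadjusted p = 0.0184) without replicate 1 of both groups. It was 1.05 (unadjusted p = 0.0746) without Slit2fl/fl replicate 3 and 0.79 (unadjusted p = 0.0843) without Slit2th replicate 1. Scd2, the paralog abundant in nervous tissue, stood at 1536, 2570 and 2138 CPM in Slit2fl/fl against 2166, 2828 and 2686 CPM in Slit2th. The groups overlapped through Slit2fl/fl replicate 2, and the log2 fold change was 0.30 (SE 0.34). Of their 50-base words, 4.56% in Scd1 and 3.97% in Scd2 also occur in other genes, so few reads could be split between the paralogs.

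Fads1 and Fads2, which lie side by side on chromosome 19 and encode the delta-5 and delta-6 desaturases of polyunsaturated fatty acids, had fold changes of opposite sign. Fads1 (ENSMUSG00000010663, chr19:10182888-10196877, plus strand) stood at 176, 174 and 123 CPM in Slit2fl/fl against 184, 247 and 244 CPM in Slit2th. All Slit2th libraries were higher, though Slit2th replicate 1 lay close to the Slit2fl/fl range. The log2 fold change was 0.52 (SE 0.33, unadjusted p = 0.149, adjusted p = 0.553 by edgeR's quasi-likelihood test), or 0.72 (unadjusted p = 0.00496) without replicate 1 of both groups. Fads2 stood at 77.6, 38.8 and 29.0 CPM in Slit2fl/fl against 23.8, 35.7 and 29.3 CPM in Slit2th. Its groups overlapped, and the log2 fold change of -0.71 (SE 0.45) was -0.07 without replicate 1 of both groups. The elongase gene Elovl6 had a log2 fold change of 0.90 (SE 0.51). The citrate lyase gene Acly had one of -0.30 (SE 0.42), and the carboxylase gene Acaca one of -0.15 (SE 0.60). Fasn, the fatty acid synthase, was high in replicate 1 of both groups, at 34.2, 7.76 and 12.5 CPM in Slit2fl/fl against 37.9, 4.76 and 6.20 CPM in Slit2th (log2 fold change -0.23, SE 0.84).

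Levels of different genes were compared as CPM per kilobase of merged exons. Scd2 was the most abundant member by far, at 381 ± 95.0 CPM per kilobase in Slit2fl/fl and 469 ± 63.8 in Slit2th (SD, n = 3 each). Scd1 followed with 47.2 ± 17.8 and 96.2 ± 25.7, and Fads1 with 32.7 ± 6.29 and 46.8 ± 7.42 CPM per kilobase. Among control genes, Insig1 (24.8 ± 19.8 and 18.2 ± 5.76) and Insig2 (11.3 ± 5.22 and 20.5 ± 3.0) did not differ beyond their spread, and both exceeded Srebf2 (1.84 ± 1.38 and 0.875 ± 0.550). In the mevalonate branch, Hmgcs1 (11.7 ± 3.19) and Acat2 (12.7 ± 8.16) were at like levels in Slit2fl/fl, whereas in Slit2th Hmgcs1 (11.6 ± 3.74) was above Acat2 (2.47 ± 1.01). The sterol genes Nsdhl, Sc5d, Sqle, Ebp and Msmo1 lay within their spread of one another in Slit2fl/fl, between 9.68 and 12.1 CPM per kilobase. In Slit2th, Ebp (5.89 ± 2.15) was below Sqle (9.63 ± 0.460), and Nsdhl (15.8 ± 7.23) had the highest mean and the widest spread. Scd2 alone made up 60.5% to 69.2% of the summed CPM of the 32 genes in a library. The other 31 genes summed to 1003, 1144 and 1092 CPM in Slit2fl/fl against 1305, 1275 and 1326 CPM in Slit2th, of which Scd1 and Fads1 were the largest. Among these 31, only the 7 fatty acid genes had separate sums, at 477 to 613 CPM in Slit2fl/fl and 766 to 939 in Slit2th. Scd1 made up much of both sums, at 137, 308 and 248 CPM in Slit2fl/fl against 615, 409 and 389 CPM in Slit2th. Acly, Acaca, Fasn and Fads2 had negative log2 fold changes, so the separation does not describe the branch as a whole. Sums without Scd1 were not computed. The sums overlapped for the control (90.1 to 197 and 130 to 161 CPM), mevalonate (88.0 to 147 and 44.0 to 88.1) and sterol genes (279 to 297 and 192 to 322).

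**Figure D4:**
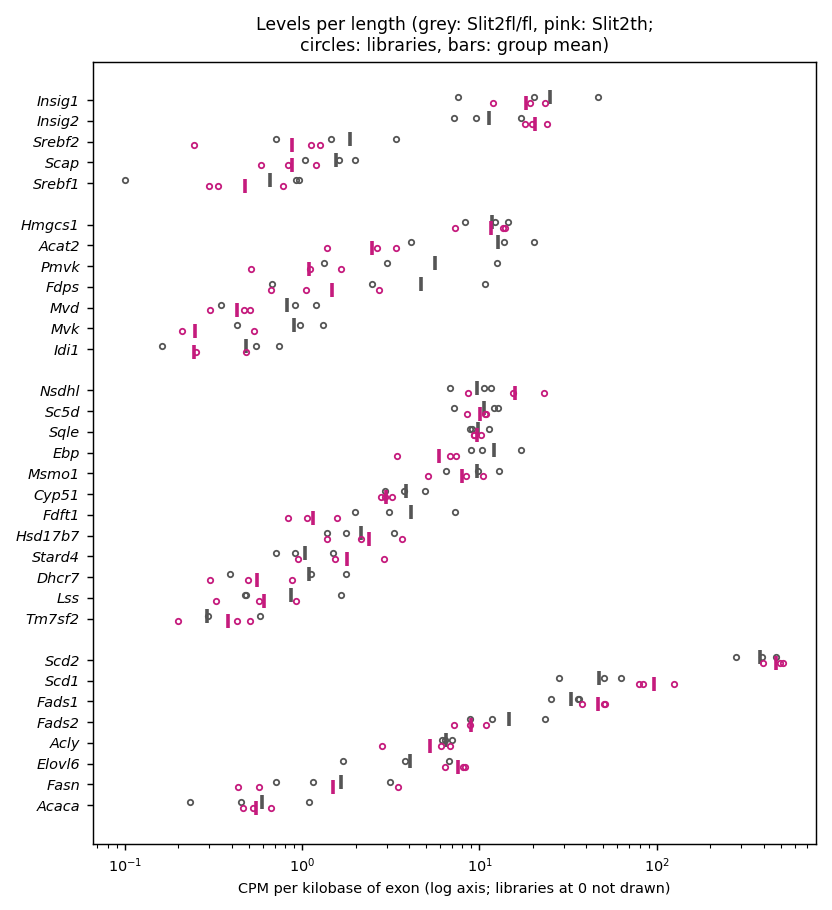
CPM per kilobase of merged exons (log axis) of the 32 genes in blocks by role, with circles for libraries and bars for the mean of n = 3 per group; libraries at 0 (of Mvk, Idi1 and Tm7sf2) are not drawn. Scd2 lies above all other genes in both groups, and the means of Acat2 are 12.7 in Slit2fl/fl against 2.47 in Slit2th.

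The fold changes moved with the GC content of the genes. Over the 32 members the rank correlation of log2 fold change with GC was -0.521, and over all tested genes -0.344; the genes share the same 6 libraries, so this describes the libraries. The 15 members above 50% GC had a median of -0.95 and 13 of them were negative, while the 17 others had a median of -0.02. The medians of all tested genes on either side were -0.38 and 0.16. With offsets corrected for GC content in each library, the members' rank correlation was -0.209, the median of the 15 was -0.31 and that of the 17 was -0.03. Over all tested genes the correction moved the split at an unadjusted p under 0.05 from 485 higher and 824 lower to 638 and 692. The part of GC content in the members' values was otherwise not tested. After the correction Acat2 stood at -2.19, Fdft1 at -1.49, Pmvk at -1.52 and Ebp at -0.81 on the log2 scale, and Scd1 at 1.07, Insig2 at 0.86 and Fads1 at 0.77. At an unadjusted p under 0.05 the correction left 2 members lower, without Pmvk (unadjusted p = 0.0635), and 3 higher, with Insig2 (unadjusted p = 0.0476) and Fads1 (unadjusted p = 0.0256) beside Scd1.

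**Figure D5:**
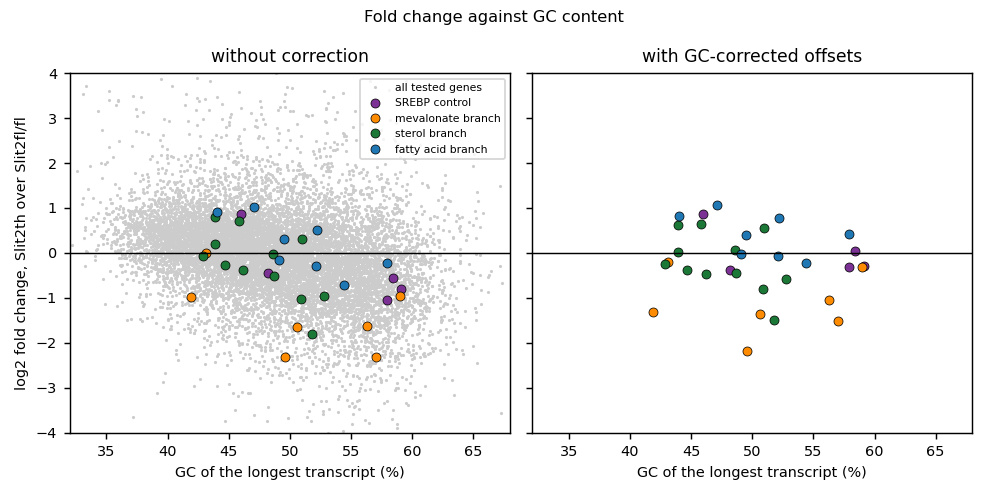
Log2 fold change (vertical axis) against the GC content of the longest transcript (horizontal axis, %) for the 32 genes, colored by role, without correction over all tested genes in grey (left; genes outside the axes are not drawn) and with GC-corrected offsets (right). The rank correlation over the 32 genes was -0.521 without and -0.209 with the correction.

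Summed markers of several cell types differed between the groups as well. The 20 glia markers summed to 6794, 12270 and 12926 CPM in Slit2fl/fl against 21524, 15002 and 17189 CPM in Slit2th, without overlap. The 15 macrophage markers summed to 129, 69.2 and 34.1 CPM in Slit2fl/fl against 673, 130 and 152 CPM in Slit2th. These groups nearly met, at 129 and 130 CPM, and the highest sum was that of Slit2th replicate 1 alone. In that library Aif1 stood at 181 CPM, against at most 0.639 CPM in any other. The 17 fibroblast markers summed to 2984 to 4009 CPM in Slit2fl/fl and 4193 to 5656 CPM in Slit2th. The 16 proliferation genes were lower, at 474 to 591 CPM in Slit2fl/fl against 232 to 438 CPM in Slit2th. The 9 adipocyte markers (15.5 to 67.0 and 6.16 to 16.3 CPM), the 10 endothelial markers (42.6 to 132 and 49.0 to 56.3 CPM) and the 19 neuron markers (201 to 591 and 202 to 217 CPM) overlapped. Of the neuron markers, Th and Rbfox3 were among those at 0 in all libraries. The part of these shifts in the values of Scd1, Fads1, Insig2 and the lower genes was not tested.

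Of 90 further lipid genes in the table, 76 passed the filter, 35 of them with a positive and 41 with a negative log2 fold change, a median of -0.07. At an unadjusted p under 0.05, 1 was higher and 1 lower, and 0 had an adjusted p under 0.05. The lower one was Cers5, a ceramide synthase, at 297, 29.1 and 51.1 CPM in Slit2fl/fl against 20.2, 23.3 and 27.6 CPM in Slit2th. Its log2 fold change of -2.40 (SE 0.79, unadjusted p = 0.0139) was -0.75 (unadjusted p = 0.0822) without Slit2fl/fl replicate 1. Medians were 0.07 for 8 other sterol genes, -0.34 for 23 other fatty acid genes, 0.09 for 11 other control genes, -0.07 for 18 genes of uptake and efflux and 0.21 for 16 genes of myelin and complex lipids.

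Promoter windows were searched for 3 motifs that are known from sterol genes, on both strands. They were an SREBP site (TCACNCCAC), the box of the factor NF-Y (CCAAT) and the box of Sp1 (GGGCGG). RefSeq windows, from 250 bases before to 50 after a start site, were given for 25 of the 32 members, with 33 start sites, and none for Fdps, Fdft1, Sqle, Stard4, Fads1, Scd1 and Scd2. The SREBP site matched in 1 of the 33 windows (3.03%, against 1.24% of all 32851 windows), that of Hmgcs1. CCAAT matched in 63.6% of member windows against 37.4% of all windows, and GGGCGG in 75.8% against 35.7%. All windows cover 27025 genes, many of them not among the 12152 tested here. They were not matched to the members for expression or GC content, so the excess cannot be taken as particular to these genes. A match describes letters only, and other spellings of the SREBP site were not searched. The 200 bases before the start site are shown 5′ to 3′ on the gene's strand (RefSeq, GRCm38.p6), for the gene with the SREBP site and for the members with separate groups or an unadjusted p under 0.05 whose windows were given. Capitals mark matches on either strand, so that ATTGG is CCAAT and CCGCCC is GGGCGG read on the other strand. For Insig2 and Pmvk, which have several start sites, the site shown is one whose window holds CCAAT.
Hmgcs1 (chr13:119690151-119690350, plus strand): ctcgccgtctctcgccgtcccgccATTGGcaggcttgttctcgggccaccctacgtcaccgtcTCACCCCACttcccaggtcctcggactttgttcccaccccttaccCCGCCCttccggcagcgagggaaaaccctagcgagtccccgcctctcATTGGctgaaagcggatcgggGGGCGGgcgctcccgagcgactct
Acat2 (chr17:12960726-12960925, minus strand): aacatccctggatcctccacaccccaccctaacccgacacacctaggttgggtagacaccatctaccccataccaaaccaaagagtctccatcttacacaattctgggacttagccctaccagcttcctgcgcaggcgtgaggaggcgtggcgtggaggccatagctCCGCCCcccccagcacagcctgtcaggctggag
Pmvk (chr3:89454341-89454540, plus strand): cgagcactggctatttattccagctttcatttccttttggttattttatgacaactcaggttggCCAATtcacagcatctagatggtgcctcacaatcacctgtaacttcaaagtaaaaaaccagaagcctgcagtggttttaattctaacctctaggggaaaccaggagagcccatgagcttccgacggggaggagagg
Ebp (chrX:8193513-8193712, minus strand): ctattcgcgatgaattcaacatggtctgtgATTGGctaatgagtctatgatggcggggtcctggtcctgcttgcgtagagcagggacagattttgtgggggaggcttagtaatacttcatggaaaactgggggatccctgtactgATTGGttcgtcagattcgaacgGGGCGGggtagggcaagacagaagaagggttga
Insig2 (chr1:121332590-121332789, minus strand): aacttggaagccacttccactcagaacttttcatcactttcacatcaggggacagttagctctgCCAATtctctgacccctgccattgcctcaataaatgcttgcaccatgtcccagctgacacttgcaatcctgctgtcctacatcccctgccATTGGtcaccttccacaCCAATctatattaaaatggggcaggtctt
The windows of Hmgcs1 and Ebp hold both CCAAT and GGGCGG, and that of Acat2 holds GGGCGG. The windows of Insig2 not shown hold GGGCGG, and that of Pmvk not shown holds none of the motifs, so what the shown windows of these genes hold follows from the choice of site.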

How the data were processed

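Per the study's methods, TruSeq libraries were aligned to mm10 with HISAT2, whereas the labels' processing notes name GRCm39. The counting program, strand setting and annotation release are not given in the sources used here. The deposited values are the authors' whole-number read counts per gene, not normalized. Positions, exon lengths and GC content came from GENCODE M21 (GRCm38), which holds 20166 of the 20173 identifiers. Counts went into edgeR 4.0.16 under R 4.3.3 (TMM, quasi-likelihood test, no covariates, genes reaching 1 CPM in 3 or more libraries, Benjamini-Hochberg adjustment over 12152 genes, threshold 0.05). The standard error is the log2 fold change divided by the square root of F. Single genes were also compared by exact permutation of log2 CPM between the groups, two-sided. The floor of 3 counts covers counting error only, since PCR copies carry no molecular identifiers.

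The members and all lists were chosen with earlier results of these data known. Values in every library were to be given for members with an unadjusted p under 0.05 or with separate groups, and, in each role, for the extreme fold changes and the highest CPM per kilobase. Fdps and Fasn, given in every library too, were chosen after their values were seen. Other lipid genes were to be named at an unadjusted p under 0.05, and marker genes by their level or where at 0. Some genes that these rules name are not reported here. The alternatives were other normalizations, filters, tests (DESeq2 1.42.0, limma 3.58.1), GC and length corrections, a replicate block and leaving out libraries.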

Additional observations from a re-analysis of the deposited data

How the results depend on the processing

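None of the 32 members reached an adjusted p under 0.05 in any of the 19 alternatives, where their smallest adjusted p was 0.0855. Of all tested genes, 0 passed it in the main edgeR test and with limma-voom, against 7 without a filter, 16 with edgeR's exact test and 31 with DESeq2. Without a filter 758 genes were higher at an unadjusted p under 0.05. Leaving out single libraries gave 0 to 1 genes at an adjusted p under 0.05, and 287 to 574 higher and 422 to 1075 lower at an unadjusted p under 0.05. Without replicate 1 of both groups these numbers were 377, 817 and 1182. Members higher at an unadjusted p under 0.05 numbered 1 in the main test, 3 with limma-voom and with GC-corrected offsets, 2 with length-corrected offsets, 0 to 3 with single libraries left out (0 without Slit2fl/fl replicate 3) and 3 without replicate 1 of both groups. Of all tested genes, 485 were higher in the main test, 579 with limma-voom, 638 with GC-corrected and 558 with length-corrected offsets. Members lower ranged from 1 without Slit2fl/fl replicate 1 to 5 without Slit2fl/fl replicate 3, and numbered 1 without replicate 1 of both groups. All tested genes lower numbered 511, 922 and 1182 in these 3 settings. The median of the fatty acid genes, 0.07, was 0.41 with GC-corrected offsets and -0.04 to 0.56 with single libraries left out, and 0.34 without replicate 1 of both groups. The cause of these shifts was not tested.

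Deviations from the group means correlated at 0.231, 0.177 and 0.0476 between same-numbered libraries, and at -0.243 to 0.194 between different-numbered libraries of the 2 groups. The main test did not take the numbers as pairs, and these values do not settle whether they are. With the replicate block 3 members were higher and 2 lower at an unadjusted p under 0.05. Of all 12152 tested genes, 693 were then higher and 921 lower, and 0 passed the adjusted threshold. With the replicate block and GC-corrected offsets 3 members were higher, beside 715 of all tested genes, and the median of the fatty acid genes was 0.32.

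Of 34 single genes followed, 22 kept their sign in every alternative. The other 12 turned in at least 1 alternative. Acaca turned to 0.01 with limma-voom, 0.10 with the replicate block and 0.20 with the block and GC-corrected offsets, and Fasn to 0.43 with GC-corrected offsets and 0.11 with the block added. Hmgcs1 turned to 0.01 with RLE size factors, DESeq2 and limma-voom, 0.03 with library totals alone, 0.0019 without a filter and 0.07 with length-corrected offsets. Sqle turned to 0.01 with RLE size factors and DESeq2, 0.06 with GC-corrected offsets with or without the block, and 0.04 with length-corrected offsets. Sc5d turned to 0.01 with length-corrected offsets, Hsd17b7 to -0.01 with the block and GC-corrected offsets, and Srebf1 to 0.04 with GC-corrected offsets and 0.23 with the block added. With single libraries left out the log2 fold change ranged from -0.60 to 0.68 for Acaca, -1.75 to 0.63 for Fasn, -0.21 to 0.24 for Hmgcs1, -0.24 to 0.63 for Hsd17b7, -0.87 to 0.34 for Insig1, -0.94 to 0.39 for Lss, -0.29 to 0.04 for Sc5d, -0.07 to 0.04 for Sqle and -0.29 to 1.41 for Tm7sf2. Without replicate 1 of both groups it turned to 0.53 for Acaca, 0.15 for Fdps, 0.02 for Hmgcs1, 0.65 for Lss and 0.14 for Srebf2. Depth limits Mvk, Mvd, Idi1 and Tm7sf2, each with under 30 counts in all.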
